A study of Mus musculus with 6 samples.

Results

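The genes described here mark the epicardium, the mesothelial sheet that covers the heart, and mesothelium in general. They are Wt1, Aldh1a2, Upk3b, Upk1b, Msln, Muc16, Lrrn4, Krt8, Krt18 and Krt19, taken by symbol from the table of all genes, and make up 10 of its 54093 genes. RNA was read in myocardium of the free wall of the right atrium (RA) from wild-type C57BL/6 mice at P21. The 3 VO libraries came from mice with volume overload (VO), produced on P7 by an aortocaval fistula (ACF), an opening between the abdominal aorta and the inferior vena cava, and the 3 sham libraries from sham-operated mice of the same genotype, strain and age. Libraries carry the name of their group and their replicate number, as in sham 1 or VO 2. The labels do not say whether each library came from a separate animal, so the p-values measure the spread between these libraries, which may be partly technical.

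The epicardium is a single layer of mesothelial cells on the outer surface of the heart. In development some of its cells leave the sheet, enter the myocardium and become fibroblasts and mural cells of the vessels, and the layer sends growth factors and retinoic acid to the muscle beneath it. A mesothelial cell can be told from the muscle cells and fibroblasts around it by its simple-epithelium keratins, its surface glycoproteins and its transcription factor Wt1. In bulk tissue, fewer cells of a type and less RNA per cell cannot be told apart, so a value here is the level in the whole piece of RA.

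Sequence upstream of the RefSeq gene start was found in the RefSeq promoter table (GRCm38.p6) for 6 of the 10 genes, namely Lrrn4, Upk3b, Muc16, Aldh1a2, Krt8 and Krt18. In the 250 bases upstream, searched on both strands, AGGTCA, the core site of many nuclear receptors including those for retinoic acid, was found in 4 of these 6 genes (Lrrn4, Upk3b, Krt8 and Krt18) and in 14.0% of the 32851 promoters of the table. GGAATG, a core of TEAD sites, was found in 2 (Lrrn4 and Upk3b) and in 12.6% of all. CACCTG, an E-box, was found in 3 (Aldh1a2, Krt8 and Krt18) and in 17.2% of all, and CCAAT in 1 (Aldh1a2) and in 33.8% of all. Neither TATAAA (12.4% of all promoters) nor GGGCGG (32.7% of all) was present in any of the 6 windows. None of these 6 motifs contains another on either strand, so no match counted under 2 names. The RefSeq start and the start listed in the deposited table differ for some genes, and the AGGTCA of Lrrn4 and the CACCTG of Krt8 lie past the listed start, within the listed gene. Such a match describes the letters of the window and is neither a site nor a cause. The stretches printed here belong to Upk3b, the member with the highest level, and to Krt8 and Krt18, which encode the partners of a keratin pair. They were chosen after the matches had been seen. Each runs 5′ to 3′ on the strand of its gene and ends at the base before the listed gene start, with AGGTCA in capitals. Upk3b is at chr5:136038246-136038495 on the plus strand, Krt8 at chr15:102004483-102004592 on the minus strand, and Krt18 at chr15:102027966-102028179 on the plus strand.
Upk3b: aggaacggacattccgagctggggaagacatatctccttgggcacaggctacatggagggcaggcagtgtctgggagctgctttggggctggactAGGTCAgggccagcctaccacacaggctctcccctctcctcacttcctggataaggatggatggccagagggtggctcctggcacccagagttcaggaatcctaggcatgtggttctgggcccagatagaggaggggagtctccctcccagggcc
Krt8: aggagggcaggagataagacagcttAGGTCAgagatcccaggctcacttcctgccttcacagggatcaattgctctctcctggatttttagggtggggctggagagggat
Krt18: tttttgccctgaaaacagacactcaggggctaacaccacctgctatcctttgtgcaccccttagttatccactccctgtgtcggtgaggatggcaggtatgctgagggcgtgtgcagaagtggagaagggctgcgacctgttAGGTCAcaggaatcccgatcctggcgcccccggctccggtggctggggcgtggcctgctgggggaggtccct
The capitals stand 149 bases before the end of the stretch in Upk3b, 79 in Krt8 and 66 in Krt18.

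All 10 genes were read in all 6 libraries, in the sham RAs as well as in the VO RAs. For each, the libraries of a group spanned more than the difference between the group means, though for Krt8 this held in VO only. For each of the 10 the range of the 3 VO libraries overlapped that of the 3 sham libraries. Over all tested genes, 21.2% did not overlap. No member passed the adjusted threshold of 0.05 (0.00792% of all tested genes did), and none had an unadjusted p under 0.05 (12% of all tested genes did). The authors' own test, on counts, reported far more genes between sham and VO at an adjusted p under 0.05. Values are FPKM, fragments scaled for gene length and for a factor of each library, so levels of different genes can be compared per length. The test was limma's moderated test on log2(FPKM + 0.1) over the 12627 genes with a mean of at least 1 FPKM, two-sided, and p-values were adjusted by Benjamini-Hochberg over all of these. With 3 libraries a group, the smallest p of an exact permutation test would be 0.1. Of the 10 members, 9 were tested, and Muc16 fell under the filter with a mean of 0.761 FPKM.

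**Figure D1:**
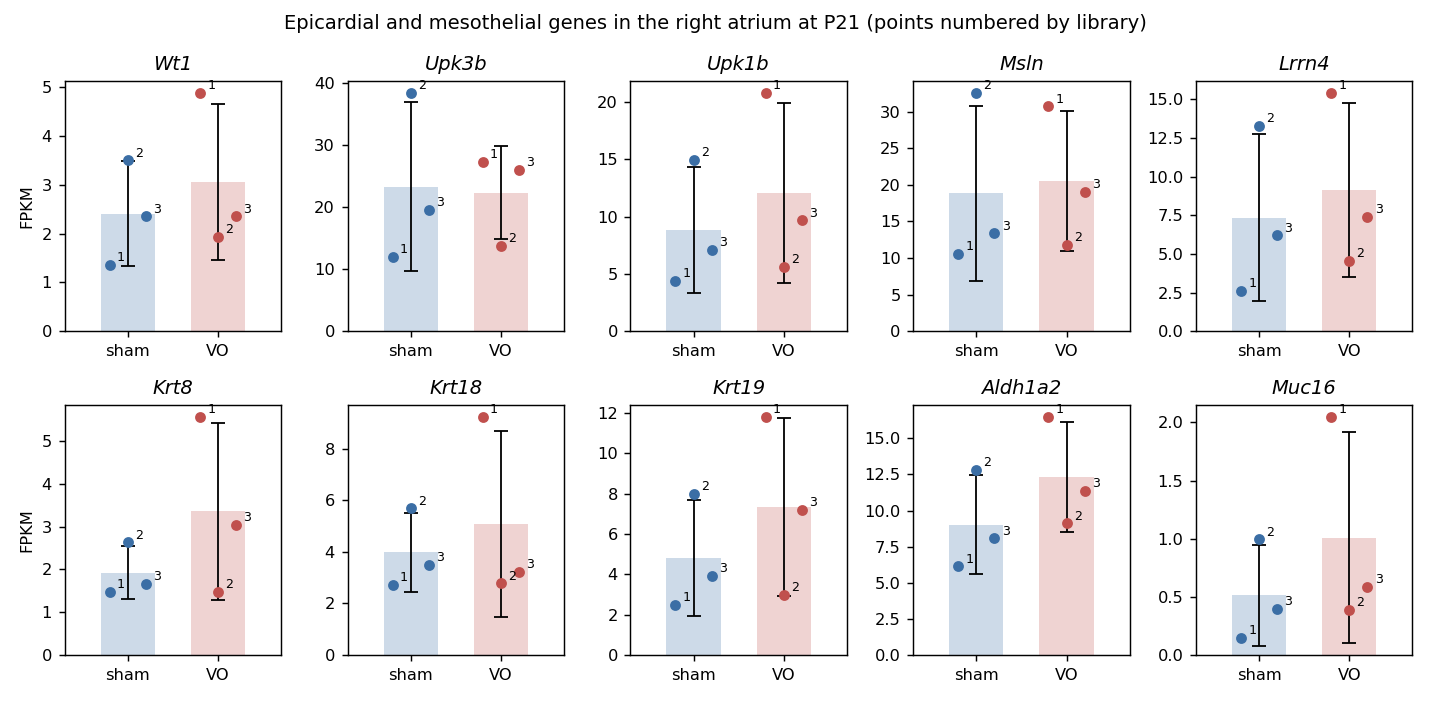
FPKM (vertical axes, from 0) of each of the 10 genes in the 3 sham and the 3 VO libraries; points are libraries with their replicate number, bars are group means and error bars 1 SD. In each panel sham 2 is the highest sham point and VO 1 the highest VO point, and the groups overlap.

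Averaged over the 6 libraries, the members ran from 22.8 FPKM for Upk3b and 19.7 for Msln, through 10.7 for Aldh1a2, 10.4 for Upk1b, 8.24 for Lrrn4, 6.08 for Krt19 and 4.53 for Krt18, to 2.73 for Wt1, 2.64 for Krt8 and 0.761 for Muc16. Neighbours in this order kept it in all 6 libraries for Msln over Aldh1a2, Upk1b over Lrrn4, Lrrn4 over Krt19, Krt18 over Wt1 and Krt8 over Muc16. Upk3b was above Msln in 5 of the 6 libraries and Krt19 above Krt18 in 5. Aldh1a2 was above Upk1b in 4 and Wt1 above Krt8 in 3, so these 2 pairs had no steady order.

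Wt1 and Aldh1a2 stand for the regulatory and signalling side of the epicardium. Wt1 (ENSMUSG00000016458, chromosome 2 from 105126529 to 105173616, plus strand, GRCm38) encodes the zinc finger transcription factor of the embryonic epicardium. Its FPKM was 1.36, 3.50 and 2.36 in sham 1, 2 and 3, and 4.88, 1.93 and 2.36 in VO 1, 2 and 3. VO 1 was the highest library and sham 1 the lowest, and sham 3 and VO 3 were level. Mean FPKM was 2.41 ± 1.07 in sham against 3.06 ± 1.60 in VO (SD over 3 libraries each), and the log2 fold change was 0.31 (standard error 0.43, 95% interval -0.70 to 1.32, limma's adjusted p = 0.738). The antisense gene Wt1os, whose listed span borders Wt1 on its upstream side, was read at 0.0154 to 0.356 FPKM.

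Aldh1a2 (ENSMUSG00000013584, chromosome 9 from 71215789 to 71296243, plus strand) encodes the retinaldehyde dehydrogenase that makes retinoic acid in the epicardium. It was read at 6.13, 12.8 and 8.08 FPKM in the sham libraries and at 16.5, 9.10 and 11.4 FPKM in the VO libraries. Sham 2 lay above VO 2 and VO 3, so the groups overlapped, although sham 1 and sham 3 were the 2 lowest libraries. Among the tested members it had the narrowest interval, with a log2 fold change of 0.47 (standard error 0.31, 95% interval -0.26 to 1.20, limma's adjusted p = 0.507).

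The uroplakins Upk3b and Upk1b encode membrane proteins first known from the plaques of the bladder lining and shared by mesothelial cells. Upk3b (ENSMUSG00000042985, chromosome 5 from 136038496 to 136046487, plus strand) was read at 11.9, 38.3 and 19.5 FPKM in the sham libraries and at 27.2, 13.8 and 25.9 FPKM in the VO libraries. It was the member with the lower mean in VO, at 22.3 ± 7.42 against 23.3 ± 13.6 FPKM in sham (SD, n = 3 each), a ratio of 0.960. On the log2 scale the difference was 0.04 (standard error 0.44, 95% interval -1.01 to 1.09, limma's adjusted p = 0.972). Upk1b (ENSMUSG00000049436, chromosome 16 from 38773184 to 38800328, minus strand), a tetraspanin, was read at 4.40, 15.0 and 7.11 FPKM in the sham libraries and at 20.8, 5.64 and 9.69 FPKM in the VO libraries. Again sham 1 was the lowest library, and VO 2 lay below both sham 2 and sham 3.

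Msln and Muc16 encode 2 surface glycoproteins that bind each other, mesothelin on its lipid anchor and the large mucin known as CA125. Msln (ENSMUSG00000063011, chromosome 17 from 25748614 to 25754327, minus strand) was read at 10.6, 32.6 and 13.4 FPKM in the sham libraries and at 30.7, 11.8 and 19.1 FPKM in the VO libraries. Sham 2 was its highest library. Muc16 (ENSMUSG00000109564, chromosome 9 from 18495455 to 18674530, minus strand) was read at 0.149, 0.993 and 0.399 FPKM in the sham libraries and at 2.05, 0.389 and 0.586 FPKM in the VO libraries. Its gene model is long, so these low values rest on 61 fragments in sham 1 to 980 in VO 1. It had the widest range of the members, 13.8-fold between its lowest and highest library, and in the fit that included genes with a mean of at least 0.1 FPKM its log2 fold change was 0.80 (standard error 0.71, 95% interval -0.86 to 2.47, limma's adjusted p = 0.668). Lrrn4 (ENSMUSG00000043110, chromosome 2 from 132868305 to 132880891, minus strand), a leucine-rich repeat membrane protein found on mesothelial cells, was read at 2.60, 13.3 and 6.20 FPKM in the sham libraries and at 15.4, 4.56 and 7.40 FPKM in the VO libraries. VO 2 lay below sham 2 and sham 3.

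Keratins form filaments from pairs of a type II and a type I chain, and Krt8 (type II) with Krt18 or Krt19 (type I) is the pair of simple epithelia. Krt8 (ENSMUSG00000049382, chromosome 15 from 101996698 to 102004482, minus strand) was read at 1.48, 2.64 and 1.66 FPKM in the sham libraries and at 5.57, 1.47 and 3.04 FPKM in the VO libraries. It was the member whose lowest library was VO 2 and not sham 1, by a margin far inside counting error, since these 2 values stood for 47 and 45 fragments. Its log2 fold change was the largest of the 9 tested members, at 0.63 (standard error 0.46, 95% interval -0.46 to 1.71, limma's adjusted p = 0.543). Krt18 (ENSMUSG00000023043, chromosome 15 from 102028180 to 102032027, plus strand) lies 23.697 kb from Krt8 and was read at 2.73, 5.69 and 3.50 FPKM in the sham libraries and at 9.24, 2.77 and 3.22 FPKM in the VO libraries. VO 1 stood apart from the other libraries, while VO 2 and VO 3 were below sham 2 and sham 3. Krt19 (ENSMUSG00000020911, chromosome 11 from 100140810 to 100148665, minus strand) was read at 2.49, 8.01 and 3.94 FPKM in the sham libraries and at 11.8, 2.98 and 7.21 FPKM in the VO libraries. Here VO 3 came close to sham 2.

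The keratin levels carry a limit of counting. Genes with near-identical copies can lose fragments in this table, where Gapdh, an abundant enzyme with many pseudogenes, was listed at 0.698 to 5.03 FPKM. Krt8 and Krt18 also have processed pseudogenes, of which Krt8-ps was read at 0 to 0.233 FPKM, so the levels of both keratins are uncertain. The lincRNA gene Gm36026, which overlaps the start of Krt8, was listed at 0 in all libraries except sham 2, where it stood at 0.0704 FPKM. Gm48124 within Aldh1a2 and Gm25295 within Muc16 were listed at 0 throughout.

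Between VO and sham, the log2 fold changes of the 9 tested members all lay above 0, from 0.04 for Upk3b to 0.63 for Krt8, with a median of 0.42. Over all 12627 tested genes the median was -0.01, and 48.5% lay above 0. All 9 intervals included 0, and the 9 standard errors ran from 0.31 to 0.64. That all 9 shared a sign depended on single libraries and was lost without sham 1, sham 3, VO 1 or VO 3. Without sham 1 the median of the members was -0.03, and without VO 1 it was -0.07, while without sham 2 it was 0.76 and without VO 2 it was 0.67. The sign turned for 5 members without sham 1 (Wt1, Upk3b, Msln, Lrrn4 and Krt18), for these 5 and Upk1b without VO 1, and for Upk3b also without sham 3 (-0.0031) or VO 3 (-0.098). Without sham 2, Aldh1a2 had an unadjusted p under 0.05 with a log2 fold change of 0.76 (limma's adjusted p = 0.546), and without VO 2, Krt8 did with 1.10 (limma's adjusted p = 0.271). No other member passed the unadjusted threshold in these fits.

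**Figure D2:**
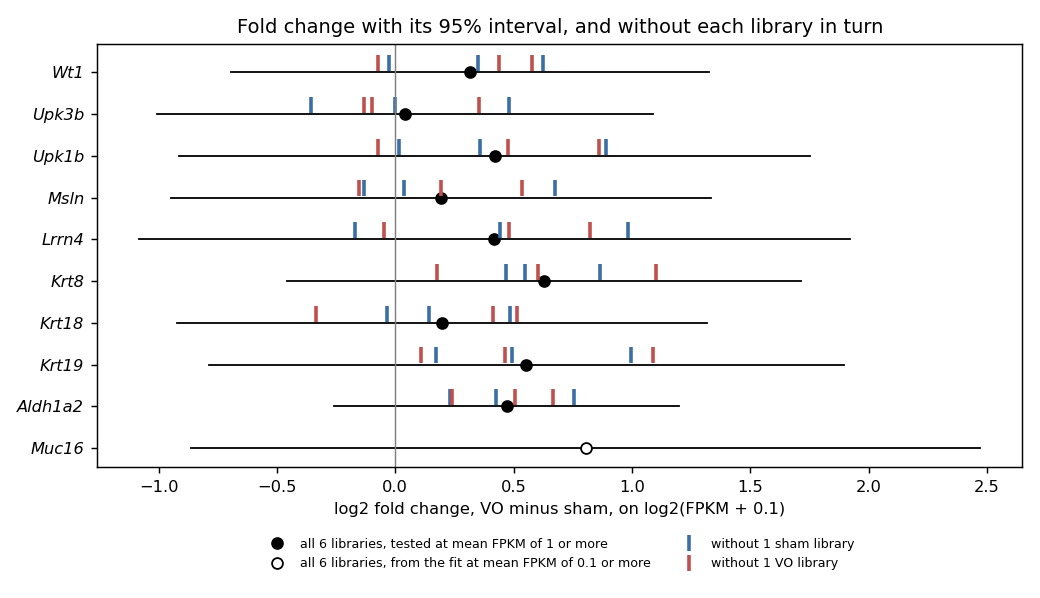
Log2 fold change of VO over sham for each of the 10 genes (horizontal axis, on log2(FPKM + 0.1)); circles are values from all 6 libraries with 95% intervals as lines, the open circle for Muc16 coming from the fit with the lower filter, and ticks are values without 1 library. All intervals cross 0, and ticks of 6 members lie on both sides of it.

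The members differed far more between libraries of 1 group than most genes did. Their SD of log2 values over the 3 sham libraries had a median of 0.83 (range 0.42 to 1.16), against a median of 0.16 over all tested genes, and all 9 were above the 90th percentile of all genes (0.41). Over the 3 VO libraries the median was 0.87 (range 0.43 to 0.99) against 0.20, with 7 of the 9 above the 90th percentile of 0.56. Sham 2 exceeded sham 1 by 3.08-fold at the median of the members (1.78 to 5.11), where the median over all genes was 0.971. VO 1 exceeded VO 2 by 3.33-fold (1.81 to 3.97), where the median over all genes was 0.970.

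The order of the libraries was nearly the same for each member. Sham 1 was the lowest of the 6 libraries in 9 of the 10 members (23.1% of all tested genes) and VO 1 the highest in 8 (25.4% of all tested genes), with sham 2 the highest for Upk3b and Msln. Within the groups, sham 2 was the highest sham library for all 10 members (28.0% of all tested genes) and VO 1 the highest VO library for all 10 (34.1%). Sham 2 lay above VO 2 for all 10 members and above VO 3 for 9, the exception being Krt8. On the centred log2 scale, the mean of the tested members was -0.86, 0.60 and -0.28 in sham 1, 2 and 3 and 0.96, -0.55 and 0.13 in VO 1, 2 and 3.

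**Figure D3:**
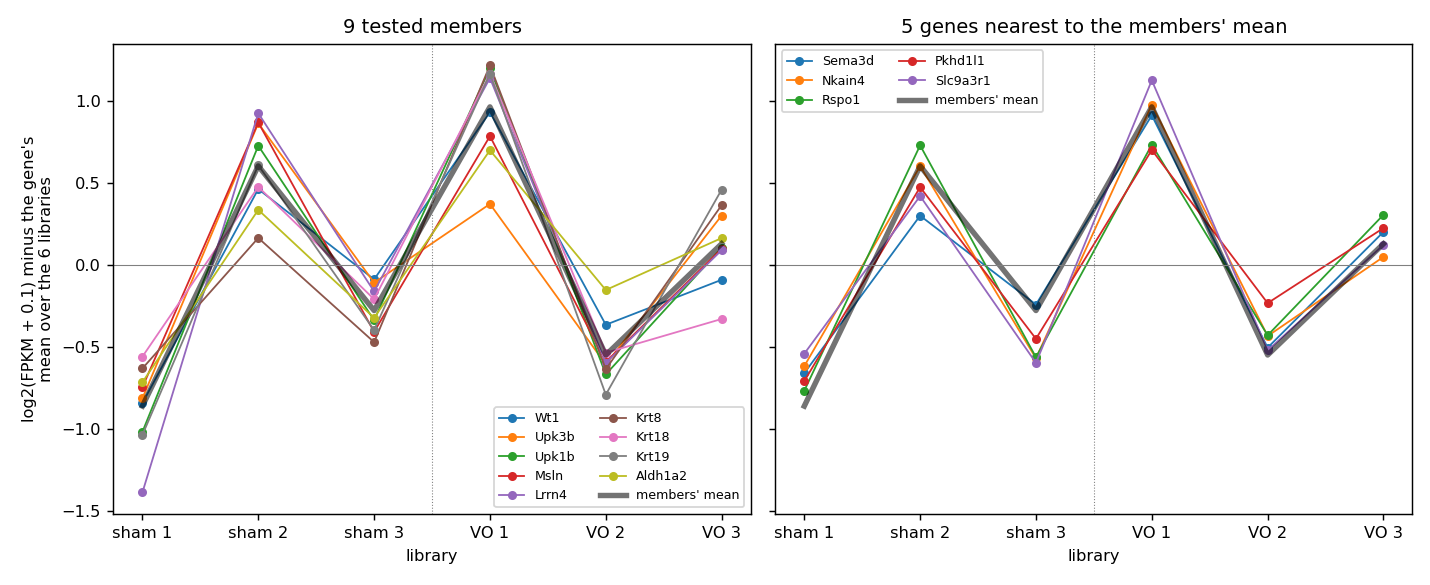
Log2(FPKM + 0.1) minus each gene's mean over the 6 libraries (vertical axis) by library, for the 9 tested members (left) and for the 5 genes nearest to their mean (right); the thick line is the mean of the members. It peaks in VO 1 at 0.96 and in sham 2 at 0.60 and is lowest in sham 1 at -0.86.

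Ratios between members showed where single libraries departed from this common pattern, and several of them share Upk3b as a term. Upk3b was 2.44 to 2.74 times Upk1b in 5 libraries and 1.31 times Upk1b in VO 1. Krt19 was 0.202 to 0.278 of Upk3b in 5 libraries and 0.434 in VO 1, and Lrrn4 was 0.218 to 0.346 of Upk3b in 5 and 0.566 in VO 1. Of the summed FPKM of the 10 members, Upk3b made up 25.3% to 29.5% in 5 libraries and 18.9% in VO 1, and the 3 keratins together 12.3% to 15.3% in 5 and 18.5% in VO 1. Aldh1a2 ranged from 0.334 of Upk3b in sham 2 to 0.661 in VO 2, with VO 1 inside that range at 0.606. The ratio of Muc16 to Msln was 0.0141 in sham 1, 0.0298 to 0.0330 in 4 libraries and 0.0667 in VO 1. VO 3 was the odd library for Krt18, where Krt18 was 1.06 times Krt8 against 1.66 to 2.16 times in the others, and Krt19 was 2.24 times Krt18 against 0.914 to 1.41 times. These ratios are descriptions of single libraries and have no test.

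Outside the members, the 5 tested genes whose library pattern was nearest to the members' mean were Sema3d, Nkain4, Rspo1, Pkhd1l1 and Slc9a3r1. Likeness was the root mean square over the 6 libraries of the difference between centred log2 values, computed for 12618 genes, and it was 0.155, 0.165, 0.185, 0.203 and 0.210 for these 5. The members' own values ran from 0.137 for Upk1b to 0.283 for Upk3b. Sema3d, a secreted guidance protein, was read at 1.45, 2.92 and 1.97 FPKM in the sham libraries and at 4.51, 1.63 and 2.72 FPKM in the VO libraries. Nkain4, a membrane protein that interacts with the sodium pump, had 5.65, 13.3 and 5.85 FPKM in sham and 17.3, 6.44 and 9.03 FPKM in VO. Rspo1, a secreted amplifier of Wnt signalling, had 1.86, 5.42 and 2.15 FPKM in sham and 5.43, 2.37 and 4.02 FPKM in VO. All 3 were low in sham 1 and high in sham 2 and VO 1. All 3 belong to the further list of epicardial and mesothelial genes, which was written with earlier results of these data known. Pkhd1l1, a large membrane protein, and Slc9a3r1, a scaffold of microvilli that binds ezrin, were not on any list.

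That further list held 22 genes, of which 17 were tested and Calb2 was listed at 0 throughout. Of the 17, 12 were among the 126 genes nearest to the members' pattern, which are 1% of those compared, 15 had sham 2 as the highest sham library and 13 had VO 1 as the highest of all. The list was written with earlier results of these data known, so these counts are not independent of them. Between VO and sham, 14 of the 17 had a log2 fold change above 0, with a median of 0.39, and none passed the adjusted threshold. Tbx18, a T-box transcription factor of the epicardium, had an unadjusted p under 0.05, and is named for that after its values were seen. It was read at 2.67, 4.19 and 3.58 FPKM in sham and at 6.30, 3.72 and 5.99 FPKM in VO (log2 fold change 0.59, limma's adjusted p = 0.414), and sham 2 lay above VO 2. The complement component C3 stood at 9.94, 39.4 and 15.2 FPKM in sham and at 175, 16.5 and 51.4 FPKM in VO, again lowest in sham 1 and highest in VO 1. Clu, the most abundant gene of the list at 445 to 652 FPKM, was lowest in VO 1 and highest in VO 2. The 5 of the 17 outside the nearest 1% were C3, Clu, Tcf21, Rarres2 and Prg4. The measure of likeness counts the size of the swings between libraries as well as their order. A gene such as C3 (rank 10173) can thus rank far off while its lowest and highest libraries are those of most members. Tcf21 (rank 5034) was read at 21.4, 15.8 and 16.3 FPKM in sham and at 25.7, 17.7 and 15.0 FPKM in VO. Its highest sham library was sham 1 and its lowest sham library sham 2, unlike in the members.

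Other genes of retinoic acid synthesis, binding and reception were listed beside Aldh1a2. Of these 18, 12 were tested, and 10 had a log2 fold change above 0, with a median of 0.12. None had an unadjusted p under 0.05, and none was among the nearest 1%, Rdh10 coming closest at rank 145. Sham 2 was the highest sham library for 2 of the 12, against 10 of the 10 members. The most abundant was Dhrs3, a retinaldehyde reductase, at 17.1 to 22.7 FPKM. Aldh1a3, which like Aldh1a2 makes retinoic acid, was the gene of this list whose groups did not overlap, at 1.31, 1.48 and 1.33 FPKM in sham and 1.67, 1.86 and 1.54 FPKM in VO (log2 fold change 0.28, limma's adjusted p = 0.509), and is named for that after its values were seen.

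Other uroplakins and keratins were read at low levels. None of the 4 other uroplakins was tested. Upk1a reached 0.691 FPKM, Upk3a was listed at 0 outside sham 1, and Upk2 was listed at 0 in all libraries. Of 12 other keratins, 3 were tested and 5 (Krt5, Krt13, Krt15, Krt17 and Krt23) were listed at 0 throughout. Krt7, a simple-epithelium keratin on both lists, was read at 0.702, 1.54 and 0.470 FPKM in sham and at 2.67, 0.566 and 0.949 FPKM in VO and was among the nearest 1%. Krt14 stood at 4.42 FPKM in VO 1 and at 0.105 to 1.22 in the other libraries, and Krt10 at 0.988 to 1.28 FPKM in all.

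Markers of other cell types were read beside the members. Epithelial markers of lung, airway, thymus and oesophagus summed to 0.114 to 3.42 FPKM over the 3 sham and 2.85 to 8.97 over the 3 VO libraries (13 genes, 1 tested, 3 listed at 0). Epcam did not exceed 0.0945 FPKM and Cdh1 did not exceed 0.398. The airway secretory protein Scgb1a1 carried most of that sum in sham 2 and the 3 VO libraries, and stood at 0.540, 2.56 and 0 FPKM in sham and 6.37, 1.80 and 4.34 FPKM in VO (log2 fold change 2.78, limma's adjusted p = 0.411), while Sftpc of lung alveoli stood at 0 to 1.71 FPKM. Scgb1a1 was, like the members, highest in VO 1 and highest of the sham libraries in sham 2, and its part in the members' values was not tested. The members' own sum was 43.8, 132.8 and 66.2 FPKM in sham and 144.3, 54.4 and 89.9 FPKM in VO.

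Heart muscle and other markers were summed in the same libraries. The 5 atrial cardiomyocyte genes, Myl7, Myl4, Nppa, Sln and Tnnt2, summed to 17118, 11054 and 10832 FPKM in sham and to 4754, 10396 and 7443 FPKM in VO, so sham 1, where 9 of the 10 members were lowest, had the highest sum and VO 1, where 8 were highest, the lowest. All 5 had log2 fold changes under 0 (median -0.81), 3 of them (Tnnt2, Myl4 and Myl7) with an unadjusted p under 0.05 and none after adjustment (smallest limma adjusted p = 0.406). Sham 2 and sham 3 had nearly the same cardiomyocyte sum, while the members' sums in them were 132.8 and 66.2 FPKM. Macrophage markers, led by Csf1r and Adgre1, summed to 41.4 to 46.8 FPKM in sham and to 147.6, 49.7 and 59.3 FPKM in VO 1, 2 and 3. Cd68, a lysosomal protein of macrophages, was read at 6.39, 6.37 and 7.13 FPKM in sham and at 17.8, 7.47 and 10.6 FPKM in VO (log2 fold change 0.75, limma's adjusted p = 0.410). Fibroblast markers, led by Dcn and Lum, summed to 638 to 656 FPKM in sham and 644 to 884 in VO, with VO 1 the highest. Of these 6 genes, 2 were among the nearest 1% to the members' pattern. They were the collagen chains Col1a1 (rank 83, log2 fold change 0.51, limma's adjusted p = 0.423) and Col1a2 (rank 93, 0.56, adjusted p = 0.411), named after their values were seen. Postn ranked 939 (log2 fold change 0.68). Dcn, Pdgfra and Lum ranked 6085, 6458 and 5038, with log2 fold changes of -0.03, -0.01 and 0.11. Unlike the members, these last genes had sham 2 as their lowest sham library. Endothelial and endocardial markers, led by Pecam1 and Npr3, summed to 184 to 203 FPKM in sham and 178 to 199 in VO. Of these 4 genes, 2 had a log2 fold change above 0. Cdh5, the cadherin of endothelial junctions, was read at 39.9, 45.2 and 45.6 FPKM in sham and at 55.5, 48.9 and 54.0 FPKM in VO (log2 fold change 0.28, limma's adjusted p = 0.410). Npr3 and Pecam1 went the other way (log2 fold changes -0.31 and -0.06, limma's adjusted p = 0.423 and 0.833). Among smooth muscle markers, Acta2 was read at 154, 136 and 201 FPKM in sham and 54.1, 98.7 and 98.9 FPKM in VO (means 163.8 and 83.9 FPKM, limma's adjusted p = 0.373), and Myh11, the other tested gene of that list, at 4.44 FPKM on average in sham and 4.73 in VO (log2 fold change 0.01, limma's adjusted p = 0.986). Adipocyte markers, led by Ucp1 and Cfd, summed to 555 FPKM in VO 3 and to at most 1.34 FPKM elsewhere. Ventricular markers, led by Myl3 and Myl2, summed to 119 to 306 FPKM in sham and 90.8 to 142 in VO, and the lymphocyte markers, led by Cd79a and Ms4a1, to 0.643 to 1.15 and 1.10 to 2.38 FPKM. The part of these cell types in the members' values was not tested.

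**Figure D4:**
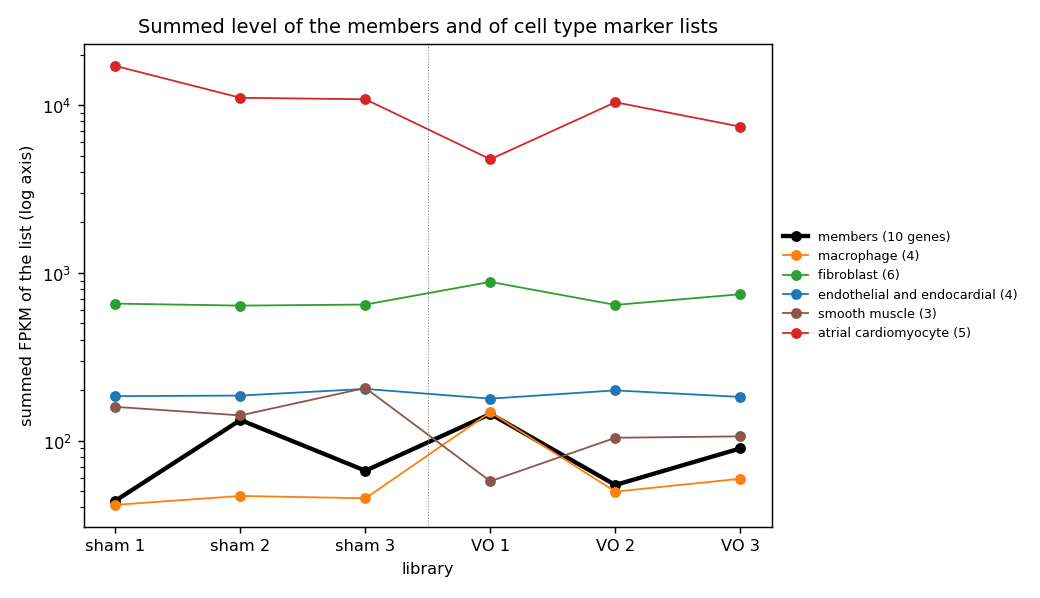
Summed FPKM (vertical axis, log scale) by library of the 10 members and of 5 cell type marker lists, with the number of genes of each list in the key. The members peak in sham 2 and VO 1, macrophage markers peak in VO 1 (147.6 FPKM), and atrial cardiomyocyte markers are highest in sham 1 and lowest in VO 1.

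The sex of the mice was not among the labels, and Xist and the Y-linked Ddx3y showed that each group mixed them. Xist was high in sham 1, sham 3, VO 1 and VO 2, and Ddx3y in sham 2 and VO 3. Within the 4 libraries with Xist, the median log2 difference of the tested members between VO and sham was 0.79, and 9 of the 9 lay above 0 (0.34 to 1.04). Between the 2 libraries with Ddx3y, VO 3 and sham 2, it was -0.56, and 1 of the 9, Krt8, lay above 0 (-0.83 to 0.20). The direction of the difference thus was not the same within both sets, and with 1 library a group the second has no replicate check. Fragments on genes ran from 15963082 to 17237903 per library, so depth differed little. At this depth the lowest member values rested on 45 to 61 fragments (Krt8, Krt18 and Muc16 in sham 1), and counting error alone put the Krt8 value in sham 1 between 1.08 and 1.98 FPKM (95% exact Poisson interval, which covers counting error only).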

How the data were processed

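RA myocardium of P21 mice gave 3 sham and 3 VO RNA-seq libraries. The authors prepared libraries with the NEBNext Ultra kit, aligned the reads with HISAT2 (2.0.5), counted them per gene with featureCounts (1.5.0-p3) and deposited FPKM values. Strandedness was not given in the sources used here. The submitters' processing notes also list StringTie 1.3.3b, GATK 3.7 and DESeq2 1.16.1, the tool of the authors' own test, and the builds GRCm38 and mm10. The deposited table has 54093 complete rows of genes, and its last line, which breaks off, was dropped. All columns of values belonged to the 6 libraries. Coordinates were identical to GENCODE vM21 (GRCm38) for 98.4% of the 54039 shared genes and for 9 of the 10 members.

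Multiplied by gene length, the FPKM values were whole multiples (tolerance 0.01) of 1 step per library for 100% of values, which gave the fragments behind each value. These summed to 16494342, 17237903 and 16826136 in sham 1, 2 and 3 and to 16852482, 15963082 and 16298717 in VO 1, 2 and 3. The steps followed median-of-ratios factors of the fragments (0.937 in sham 1 to 1.09 in VO 1), not the summed fragments, so the deposited FPKM were already scaled this way. Median-of-ratios factors of the FPKM were therefore 1.00 in each library, and rescaling by them left the values as deposited. FPKM was kept where the mean was at least 1 and taken as log2(FPKM + 0.1), so fold changes of low genes are understated. VO was compared with sham in the 12627 genes by limma 3.58.1 (R 4.3.3; lmFit, then eBayes with a variance trend), without covariates. Tests were two-sided, p-values were adjusted by Benjamini-Hochberg over the 12627 genes, and the threshold was 0.05. The fit was tested on simulated data with larger changes and a smaller spread between libraries than the members had. That test does not show how the fit performs for the members. The deposited values are FPKM, so limma took the place of the authors' count test. A fit on the recovered fragments (voom) was run as an alternative. Tables were made in Python 3.11.15 and figures with matplotlib 3.10.9.

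No pairing of the libraries by replicate number was seen: deviations from the group means of same-numbered libraries correlated across genes at -0.108, 0.0112 and -0.0292. The labels say nothing on pairing, and these correlations cannot exclude it. The members were taken by symbol. The text names all members, the genes that overlap a member, the 5 genes nearest to their library pattern and, from lists of other epicardial, retinoic acid, uroplakin, keratin and cell type marker genes, those past the adjusted threshold, up to 3 that passed the unadjusted threshold without overlap, and the 2 with the highest mean, of which 1 retinoic acid gene is not reported here. The members and lists were chosen with earlier results of these data known. Genes named outside this rule were chosen after their values were seen. Promoter sequence was read from the RefSeq table of GRCm38.p6, 250 bases upstream of each listed start, and cut where the gene's annotated span begins. Alternatives were the replicate block, each library left out, voom on recovered fragments, robust eBayes, eBayes without trend, quantile normalization, TPM, unscaled FPKM, a lower (0.1), a higher (5) or no minimum FPKM, and a pseudocount of 0.01 or 1. A term for the sex of the library was chosen after seeing the data.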

Additional observations from a re-analysis of the deposited data

How the results depend on the processing

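In the 13 alternatives that kept all 6 libraries, all 114 fold changes of single members kept their sign, and no member had an unadjusted p under 0.05. Most of these signs could not have turned. The minimum FPKM, unscaled FPKM, the eBayes options, the replicate block and the sex term left each member's fold change as in the reported fit. Only the pseudocounts, TPM, quantile normalization and voom could change it. The number of genes past the adjusted threshold, 1 in the reported fit, was 2 with a pseudocount of 1, 3 at a mean FPKM of at least 0.1 and 3 with eBayes without trend. It was 0 with quantile normalization, with robust eBayes, with the sex term and in every fit without 1 library, where 855 (without sham 1) to 1998 (without VO 2) genes had an unadjusted p under 0.05, and 937 without VO 1. With voom on recovered fragments it was 1, with 1616 genes at an unadjusted p under 0.05. With the replicate block it was 0, and 932 genes in place of 1511 had an unadjusted p under 0.05, with no member among them. TPM moved the median over all genes from -0.01 to 0.13 on the log2 scale, and that of the members from 0.42 to 0.56, or 0.43 above all genes in both. Leaving out 1 library at a time turned the sign of 6 members at least once. The log2 fold change ran from -0.0717 to 0.62 for Wt1, from -0.36 to 0.48 for Upk3b, from -0.072 to 0.89 for Upk1b, from -0.15 to 0.67 for Msln, from -0.17 to 0.98 for Lrrn4 and from -0.34 to 0.52 for Krt18. It stayed above 0 for Krt8 (0.18 to 1.10), Krt19 (0.11 to 1.09) and Aldh1a2 (0.23 to 0.76). The members' median ran from -0.07 to 0.76 and the number of members at an unadjusted p under 0.05 from 0 to 1. The causes were not tested. With 3 libraries a group and standard errors of 0.31 to 0.64, differences of the size fitted here were not detectable.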

Other observations

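Of the further list of epicardial and mesothelial genes, 3 that act in the fluid and matrix of serosal linings are given here by library, chosen after their values were seen. Has1, a hyaluronan synthase, was read at 0.0284, 0.385 and 0.109 FPKM in sham 1, 2 and 3 and at 1.20, 0.285 and 0.188 FPKM in VO 1, 2 and 3. Slpi, a secreted protease inhibitor, stood at 0.272, 0.344 and 0.104 FPKM in sham and at 1.91, 0.728 and 0.928 FPKM in VO. Both fell under the filter and were not tested. Prg4, the lubricant proteoglycan also known as lubricin, was read at 0.300, 0.827 and 0.646 FPKM in sham and at 2.70, 1.93 and 0.611 FPKM in VO (log2 fold change 1.29, limma's adjusted p = 0.422). VO 1 was the highest library for all 3, and sham 2 was the highest sham library for all 3. In other ways they departed from the members. Slpi was lowest in sham 3 and its groups did not overlap. Over all tested genes, 21.2% did not overlap. Has1 and Prg4 had VO 3 as their lowest VO library, where all 10 members had VO 2. The values of Slpi in sham and of Has1 in VO 2 and VO 3 were low, so counting error may set their order. Prg4 ranked 9809 of the 12618 genes in likeness to the members' pattern.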
